A study of Homo sapiens with 27 samples.

Results

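Cells of 1 line, DU145, carrying RIPK2 gRNA 2 were compared with DU145 cells carrying RIPK2 gRNA 10, both labelled as RIPK2 knockouts. The comparison takes 6 of the 27 libraries of the series, chosen by their labels: the 3 libraries of DU145 with gRNA 2 and the 3 of DU145 with gRNA 10. The remaining 3 DU145 libraries, from cells with control gRNA 1 and a genotype labelled WT, entered the model as a shared estimate of the spread and are given as the reference level. The series measured messenger RNA in DU145 and the other prostate cancer lines PC3 and 22Rv1, with 9 libraries each, and is framed around genes regulated by RIPK2. DU145 is an established human prostate cancer line, and no stimulus or drug is named in the labels for any of its groups. The labels do not say whether a population carrying a guide is 1 clone or a pool, where each guide cuts the gene, or whether replicates came from separate cultures, so p-values measure only the spread between these libraries. Any difference between the populations that existed before editing, or arose with selection or outgrowth, cannot be told apart from a difference between the guides.

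RIPK2 is an adaptor kinase that binds the intracellular peptidoglycan receptors NOD1 and NOD2. After ligand binding it is decorated with ubiquitin chains by XIAP and other ligases, recruits the TAK1 and IKK complexes, and thereby activates NF-kB and the MAP kinases, which induce cytokines and chemokines. In unstimulated tumour cells its part in transcription is less well defined than in myeloid cells, and 2 guides against 1 gene are commonly compared to separate effects they share from effects of a single population.

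RIPK2, on chromosome 8, is the gene targeted by both guides and was examined first. It was measured at 9.87, 13.3 and 12.2 CPM (counts scaled to an equal library size after TMM) in gRNA 2 replicates 1 to 3 and at 36.4, 33.4 and 34.4 CPM in gRNA 10 replicates 1 to 3, with 39.4, 44.4 and 43.5 CPM in the control libraries. All 3 gRNA 2 libraries were below all gRNA 10 libraries, and the gRNA 10 libraries were below the control libraries. The gRNA 2 mean of 11.8 ± 1.77 CPM (SD, n = 3) was lower than the gRNA 10 mean of 34.8 ± 1.51 CPM (SD, n = 3) with a difference of -1.56 on the log2 scale (SE 0.12, edgeR adjusted p = 8.68e-06). Leaving out gRNA 2 replicate 3 gave -1.58 (edgeR adjusted p = 1.52e-07). Against the control the difference was -1.84 with gRNA 2 (edgeR adjusted p = 4.49e-06) and -0.29 with gRNA 10 (edgeR adjusted p = 0.0614), so the transcript passed the test against control with gRNA 2 only, and these contrasts share their control libraries. A transcript level does not measure protein, and an edited transcript can persist, so the level alone does not check the knockout label of the gRNA 10 libraries.

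The DU145 libraries held 19782288 to 20404302 counts each. The library gRNA 2 replicate 3 stood apart from the others. It had 892 genes (5.98% of those tested) at least 2-fold away from the mean of the other gRNA 2 libraries, on the log2 scale with 0.5 CPM added. The same count was 103 and 139 for those libraries and at most 5 for any gRNA 10 or control library. Its TMM factor was 0.902, where the other 8 lay between 0.988 and 1.04, and the biological coefficient of variation of the fit was 12.3% with it and 6.59% without it. Numbers of genes called over all genes and in each gene list, and the list medians, are therefore given below with and without it. Unless stated, any other DU145 difference or count of genes given alone is from the model with all 9 libraries. Keratin and adhesion markers of this line (KRT7, KRT8, KRT18, KRT19, EPCAM and CDH1) were present in every library, with a summed level of 1809 to 1948 CPM in control, 2717 to 4288 CPM with gRNA 2 and 2026 to 2175 CPM with gRNA 10. Defining markers of other cells were at or near 0 counts: the luminal prostate markers KLK2 and KLK3 reached 1, the leukocyte marker PTPRC reached 1 and the fibroblast marker DCN reached 2 in any DU145 library. The summed fibroblast and endothelial list ran from 13.8 to 14.8 CPM in control, from 5.86 to 12.8 CPM with gRNA 2 and from 26.2 to 32.7 CPM with gRNA 10, most of it from COL1A1, and its part in the differences below was not tested.

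The guide populations differed at a large share of the transcriptome. Among epithelial junction genes, MAP kinase feedback genes, ribosome biogenesis genes and genes of the amino acid stress response, most of those called were higher with gRNA 2. Among interferon response genes and MHC class I genes, those called were lower with gRNA 2, except for 1 interferon response gene called higher without gRNA 2 replicate 3. Of 14908 genes tested, 5789 (38.8%) were called, that is, had an edgeR quasi-likelihood adjusted p below 0.05 (Benjamini-Hochberg over all genes tested). These split into 2860 higher (19.2%) and 2929 lower (19.6%) with gRNA 2. A difference of at least 2-fold was seen for 1652 of them, 518 higher and 1134 lower. The count of 2-fold differences depended on the filter on low counts: it was 1246 among genes with a mean of at least 1 CPM and 2028 with no filter. Genes near 0 in 1 guide population could enter the test through the other population alone, which fixes their direction. Without gRNA 2 replicate 3, 7266 of 15176 genes tested (47.9%) were called, 3625 higher (23.9%) and 3641 lower (24%), and 1570 of them differed at least 2-fold, 538 higher and 1032 lower. Of the 5789 genes, 5616 were called in the same direction without that library, none in the opposite direction, and 173 were no longer called or tested. The 3 and 3 libraries did not overlap for 7187 of the genes tested (48.2%), among them 5622 of the 5789 called.

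**Figure D1:**
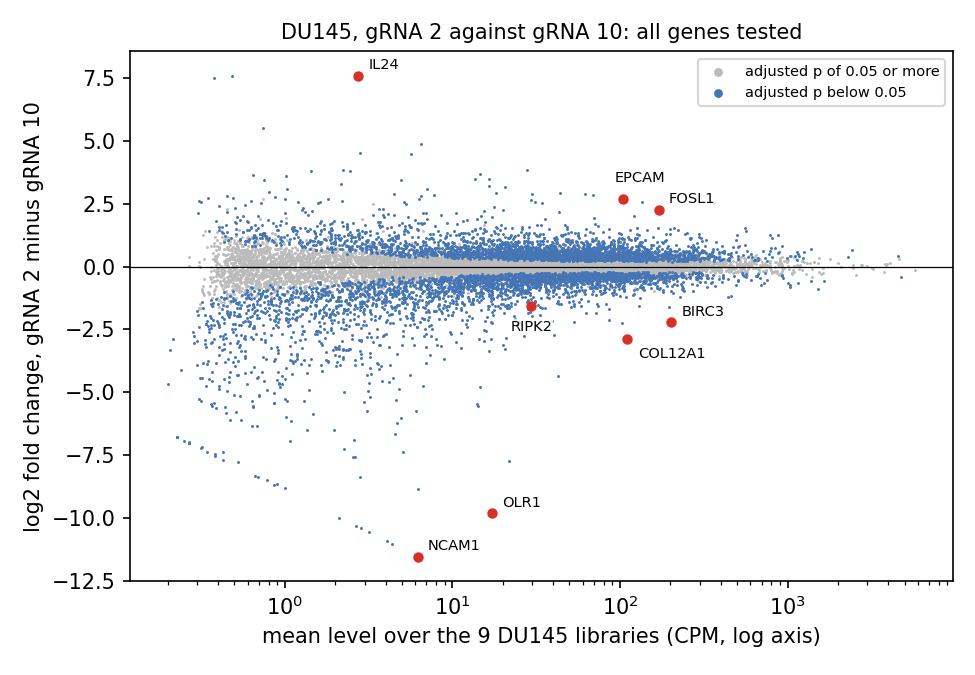
Each point is 1 of 14908 genes tested; the horizontal axis is its mean CPM over the 9 DU145 libraries on a log axis, the vertical axis its log2 fold change, gRNA 2 minus gRNA 10, and blue marks an adjusted p below 0.05. The 5789 blue genes lie on both sides of 0, and the lowest points are genes with few or no counts with gRNA 2, whose fitted values depend on the prior count.

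The kB motif is shown here because NF-kB, the factor downstream of RIPK2, is known to bind it, and because target genes with it were called in both directions. The letters GGNNNTTCC were searched on both strands in the 250 bases before the start of each gene in the RefSeq promoter table (GRCh38.p14). They were found in 17.13% of all 27305 promoters and in 19.76% of those of 11288 genes tested. Among NF-kB list members with an entry, 5 of 6 called higher with gRNA 2 and 5 of 9 called lower had a match, and the members were chosen with results known, so these shares are a description. The 150 bases before the start are printed for 3 members higher with gRNA 2 (CSF2, LTB and CXCL8) and 2 lower (TNFRSF9 and CXCL1), 5′ to 3′ on the strand of the gene, with the matches in capitals.
CSF2, chr5:132073639-132073788, plus strand: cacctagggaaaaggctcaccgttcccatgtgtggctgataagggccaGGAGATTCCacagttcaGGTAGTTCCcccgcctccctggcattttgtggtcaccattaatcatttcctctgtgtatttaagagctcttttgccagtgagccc
LTB, chr6:31582426-31582575, minus strand: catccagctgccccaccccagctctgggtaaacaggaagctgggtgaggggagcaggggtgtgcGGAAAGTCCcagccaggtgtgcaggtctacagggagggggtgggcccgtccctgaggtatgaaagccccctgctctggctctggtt
CXCL8, chr4:73740419-73740568, plus strand: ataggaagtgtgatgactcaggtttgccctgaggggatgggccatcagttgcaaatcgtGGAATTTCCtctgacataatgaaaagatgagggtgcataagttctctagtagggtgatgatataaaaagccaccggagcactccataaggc
TNFRSF9, chr1:7940840-7940989, minus strand: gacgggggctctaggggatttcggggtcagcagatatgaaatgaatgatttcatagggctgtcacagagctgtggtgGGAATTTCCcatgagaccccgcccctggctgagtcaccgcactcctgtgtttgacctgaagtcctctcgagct
CXCL1, chr4:73869243-73869392, plus strand: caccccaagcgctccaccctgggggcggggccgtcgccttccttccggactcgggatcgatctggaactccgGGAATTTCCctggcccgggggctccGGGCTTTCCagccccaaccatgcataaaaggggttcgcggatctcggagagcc

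The matches began 102 and 85 bases before the start in CSF2, 86 in LTB, 91 in CXCL8, 73 in TNFRSF9, and 78 and 53 in CXCL1. The same 9-letter core GGAATTTCC stood in CXCL8, TNFRSF9 and CXCL1, of which CXCL8 was called higher with gRNA 2 and the other two lower. A match describes letters in a window and is neither a measured binding site nor a cause.

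NF-kB targets moved in both directions. Of the list of NF-kB targets and subunits, 9 of 41 tested members were called higher with gRNA 2 and 13 lower (53.7% called, against the 38.8% of all genes), and of all genes 19.2% were higher and 19.6% lower. The median log2 difference was 0.05 against 0.02 over all genes tested. The counts were 11 higher and 19 lower of 42, and the median -0.04, once gRNA 2 replicate 3 was left out. BIRC3, which encodes the ubiquitin ligase cIAP2 and lies at chr11:102317484-102339403, was measured at 91.1, 119 and 101 CPM with gRNA 2, at 516, 465 and 457 CPM with gRNA 10 and at 24.3, 24.7 and 20.6 CPM in control. Every gRNA 2 library lay between the control and the gRNA 10 libraries, with no overlap of the 3 groups. The guides differed by -2.21 on the log2 scale (SE 0.12, edgeR adjusted p = 7.6e-07), and against control BIRC3 was 2.16 with gRNA 2 (edgeR adjusted p = 2.15e-06) and 4.37 with gRNA 10 (edgeR adjusted p = 1.69e-08). CCL5, a chemokine for T cells and monocytes, was at 0.595, 0.682 and 0.0553 CPM with gRNA 2 and 12.5, 10.5 and 10.8 CPM with gRNA 10, with 1.15, 0.863 and 0.488 CPM in control. The lowest value was that of gRNA 2 replicate 3, and the difference was -4.61 on the log2 scale (SE 0.40, edgeR adjusted p = 2.09e-05) with it and -4.12 without gRNA 2 replicate 3 (edgeR adjusted p = 1.23e-08).

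CSF2, which encodes the growth factor GM-CSF and lies at chr5:132073789-132076170, showed the opposite order, with 4.47, 4.63 and 7.96 CPM with gRNA 2, 0.554, 0.299 and 0.3 CPM with gRNA 10 and 0.624, 0.384 and 0.83 CPM in control. The gRNA 10 libraries were within the range of the control libraries or below it, and all gRNA 2 libraries were above both, with a difference of 3.86 on the log2 scale (SE 0.37, edgeR adjusted p = 3.84e-05). LTB, which encodes lymphotoxin beta, was at 3.67, 3.22 and 12.7 CPM with gRNA 2 and 0.352, 0.499 and 0.501 CPM with gRNA 10. With control at 0.288, 0.288 and 0.439 CPM, LTB passed the filter on low counts through gRNA 2 alone, which fixes its direction. The highest library was gRNA 2 replicate 3, and the difference of 3.83 on the log2 scale (SE 0.59, edgeR adjusted p = 0.0007) became 2.92 without gRNA 2 replicate 3 (edgeR adjusted p = 4.13e-07). TNFRSF9, the costimulatory receptor 4-1BB, was at 8.88, 13.2 and 5.2 CPM with gRNA 2, 21, 19.5 and 22.1 CPM with gRNA 10 and 7.3, 7.58 and 7.17 CPM in control. The gRNA 10 libraries were above all others, and the difference was -1.19 on the log2 scale (SE 0.25, edgeR adjusted p = 0.0038) and -0.91 without gRNA 2 replicate 3 (edgeR adjusted p = 7.7e-05). Other called members were PLAU (urokinase, 2.52), TNFAIP3 (the inhibitor A20, 0.50), CCL2 (a monocyte chemokine, -3.21), SOD2 (mitochondrial superoxide dismutase, -1.15) and the subunit RELA (-0.46), all log2 differences. The subunit NFKB1 (log2 difference 0.10, edgeR adjusted p = 0.336) and the inhibitor NFKBIA (0.18, edgeR adjusted p = 0.105) did not pass the test.

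In the list of NOD and RIPK2 signalling, 3 of 29 tested members were called higher with gRNA 2 and 7 lower (34.5% called, near the 38.8% of all genes). The median log2 difference was -0.10. In the model lacking gRNA 2 replicate 3, 4 of 29 were higher and 8 lower, with a median of -0.12. The receptor NOD1 was at 11.3, 10.7 and 12.3 CPM with gRNA 2 and 11.6, 11.4 and 12.9 CPM with gRNA 10. The libraries overlapped, and the difference of -0.07 did not pass the test (edgeR adjusted p = 0.644). The receptor NOD2 had 2, 3 and 0 counts with gRNA 2, 14, 27 and 25 counts with gRNA 10 and 7, 5 and 8 counts in control. The gRNA 10 libraries were the highest at this low depth, and the summed counts gave a level lower with gRNA 2 by 13-fold (95% counting interval 5.28 to 41.2, edgeR adjusted p = 0.00063). NOD2 passed the filter on low counts through gRNA 10 alone, which fixes its direction, and it counts among the 7 called lower. The linear ubiquitin ligase subunits RBCK1 (0.76) and RNF31 (0.50) were higher with gRNA 2, and the deubiquitinase OTULIN (-0.39) and the ligase TRAF6 (-0.50) were lower, as log2 differences. The ligase XIAP (0.08, edgeR adjusted p = 0.534) and the kinase MAP2K7 (-0.10, edgeR adjusted p = 0.516) did not pass the test.

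The CXCR2 ligands are chemokines that attract neutrophils and are encoded in a cluster on chromosome 4. Of the CXCR2 ligands, 1 of 6 tested members was called higher with gRNA 2 and 3 lower (66.7% called, against the 38.8% of all genes). The median log2 difference was -0.30. When gRNA 2 replicate 3 was left out, 1 of 6 were called higher and 4 lower, and the median was -0.45. CXCL5 was at 5.81, 6.43 and 5.42 CPM with gRNA 2, 14.1, 13.6 and 11.9 CPM with gRNA 10 and 0.096, 0.144 and 0.0488 CPM in control. Both guide populations stood far above the control, and gRNA 10 was the higher of them, with a difference of -1.16 on the log2 scale (SE 0.14, edgeR adjusted p = 0.00019). CXCL8, which encodes interleukin 8, was at 59.4, 79.4 and 150.004 CPM with gRNA 2, 52.3, 47.7 and 45.9 CPM with gRNA 10 and 9.41, 11 and 10.4 CPM in control. All gRNA 2 libraries were above the gRNA 10 libraries, and replicate 3 was the highest, so that the difference was 0.98 on the log2 scale (SE 0.27, edgeR adjusted p = 0.0144) with it and 0.52 without gRNA 2 replicate 3 (edgeR adjusted p = 0.00137). The call of CXCL8 was lost when gRNA 10 replicate 2 or 3 was left out (edgeR adjusted p = 0.0512 and 0.0556).

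CXCL1 was at 14.2, 12.6 and 16.7 CPM with gRNA 2, 19.5, 19.3 and 18.3 CPM with gRNA 10 and 6.77, 7.77 and 7.76 CPM in control. Its libraries did not overlap, but the difference of -0.40 on the log2 scale (SE 0.12, edgeR adjusted p = 0.0265) missed the threshold under 7 alternatives, in which it ran from -0.43 to -0.30 with adjusted p up to 0.083. CXCL6 was at 2.93, 3.46 and 1.88 CPM with gRNA 2 and 5.09, 4.84 and 5.01 CPM with gRNA 10, a difference of -0.84 on the log2 scale (SE 0.22, edgeR adjusted p = 0.0114). CXCL2 was at 82.7, 87.2 and 136 CPM with gRNA 2 and 88.3, 79 and 76.7 CPM with gRNA 10, and CXCL3 was at 5.66, 6.63 and 8.79 CPM and 8.51, 7.99 and 7.91 CPM. Neither passed the test in the 9-library model (CXCL2 0.33, edgeR adjusted p = 0.14, and CXCL3 -0.21, edgeR adjusted p = 0.327), and CXCL3 passed it at -0.40 without gRNA 2 replicate 3 (edgeR adjusted p = 0.0141). Against control, CXCL2 was 2.15 with gRNA 2 (edgeR adjusted p = 1.89e-05) and 1.82 with gRNA 10 (edgeR adjusted p = 2.96e-05), the same control libraries serving both.

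**Figure D2:**
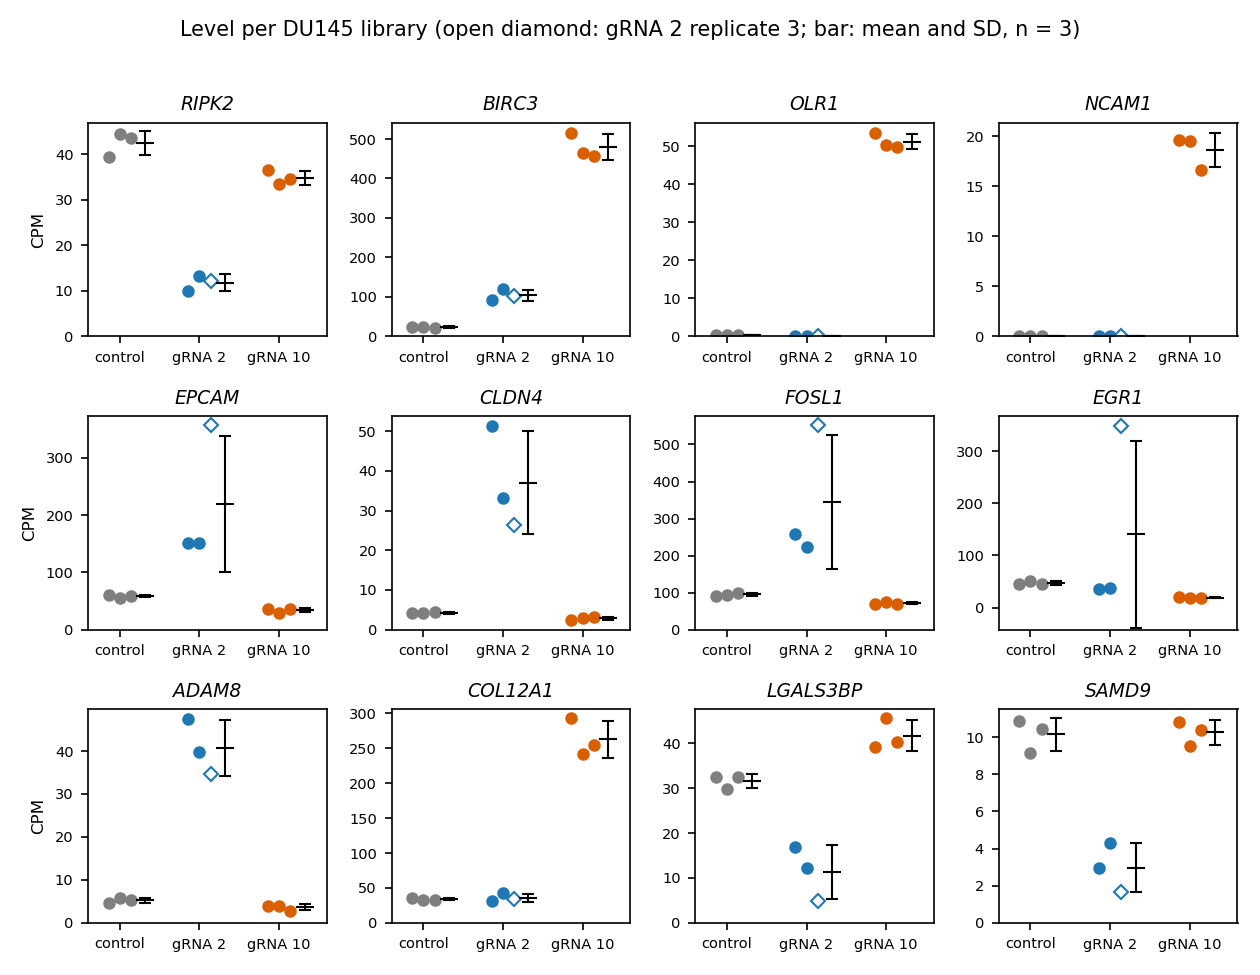
Level in CPM of 12 genes in each of the 9 DU145 libraries, by group; filled circles are libraries, the open diamond is gRNA 2 replicate 3, and the bar is the mean with its SD (n = 3). RIPK2 is lowest with gRNA 2, BIRC3 is highest with gRNA 10, and the diamond stands far above the other gRNA 2 libraries for EGR1 and FOSL1.

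The interferon response and MHC class I genes that were called were lower with gRNA 2 in the 9-library model. Of the interferon response list, 0 of 34 tested members were called higher with gRNA 2 and 16 lower (47.1% called, against the 38.8% of all genes), and of all genes 19.2% were higher and 19.6% lower. The median log2 difference was -0.56. A model fitted without gRNA 2 replicate 3 called 1 higher and 17 lower of 36, with a median of -0.29. SAMD9, an antiviral effector encoded at chr7:93099518-93117979, was at 2.98, 4.29 and 1.66 CPM with gRNA 2, 10.8, 9.53 and 10.4 CPM with gRNA 10 and 10.9, 9.16 and 10.4 CPM in control. The gRNA 10 and control libraries overlapped and all gRNA 2 libraries were below them, with a difference of -1.77 on the log2 scale (SE 0.25, edgeR adjusted p = 0.000423) and -1.49 without gRNA 2 replicate 3 (edgeR adjusted p = 3.73e-06). LGALS3BP, a secreted glycoprotein induced by interferon, was at 16.8, 12.3 and 4.98 CPM with gRNA 2, 39.1, 45.5 and 40.2 CPM with gRNA 10 and 32.5, 29.8 and 32.4 CPM in control. The lowest library was gRNA 2 replicate 3, and the difference was -1.86 on the log2 scale (SE 0.30, edgeR adjusted p = 0.000977) and -1.51 without gRNA 2 replicate 3 (edgeR adjusted p = 3.26e-07). Several members that were called were near the floor of counting, among them OAS1 at 0.298, 0.0974 and 0.111 CPM with gRNA 2 and 2.42, 2.5 and 2.1 CPM with gRNA 10, where 3 counts correspond to 0.144 to 0.166 CPM. CMPK2 (0.035 CPM with gRNA 2, 0.869 with gRNA 10 and 0.064 in control) and SAMD9L (0.0331, 0.886 and 0.144 CPM) passed the filter on low counts through gRNA 10 alone. Among members with a mean of at least 1 CPM, 0 were called higher and 12 lower, where 2680 and 2672 of all genes under that filter were. The number of genes tested under that filter is not given here, so no share stands beside these counts.

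Of the list of antigen presentation by MHC class I, 0 of 15 tested members were called higher with gRNA 2 and 9 lower (60% called, against the 38.8% of all genes). The median log2 difference was -0.42. Leaving out gRNA 2 replicate 3 gave 0 higher and 9 lower of 15, with a median of -0.34. ERAP2, a peptide-trimming aminopeptidase, was at 42.6, 45.3 and 36 CPM with gRNA 2 and 66, 61.1 and 67.4 CPM with gRNA 10, a difference of -0.65 on the log2 scale (SE 0.10, edgeR adjusted p = 0.000617). The light chain B2M was at 524, 554 and 532 CPM with gRNA 2 and 532, 471 and 500.1 CPM with gRNA 10, and its difference of 0.10 did not pass the test (edgeR adjusted p = 0.327).

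Most of the epithelial junction and keratin genes that were called were higher with gRNA 2. Of that list, 23 of 35 tested members were called higher with gRNA 2 and 2 lower (71.4% called, against the 38.8% of all genes). The median log2 difference was 0.78, the largest of the 19 lists. The counts were 25 higher and 3 lower of 35, and the median 0.78, once gRNA 2 replicate 3 was left out. CLDN4, a tight junction claudin encoded at chr7:73830996-73832690, was at 51.4, 33.3 and 26.3 CPM with gRNA 2, 2.42, 2.94 and 3.2 CPM with gRNA 10 and 4.13, 4.12 and 4.54 CPM in control. The gRNA 2 libraries were above all others, replicate 3 being the lowest of them, and the guides differed by 3.69 on the log2 scale (SE 0.25, edgeR adjusted p = 4.29e-06) and 3.89 without gRNA 2 replicate 3 (edgeR adjusted p = 1.83e-09). EPCAM, an epithelial adhesion molecule encoded at chr2:47369311-47387020, was at 151, 151 and 356 CPM with gRNA 2, 35.9, 29.7 and 36.4 CPM with gRNA 10 and 59.7, 56 and 58.6 CPM in control. The gRNA 10 libraries were the lowest and gRNA 2 replicate 3 was the highest, and the guides differed by 2.69 on the log2 scale (SE 0.30, edgeR adjusted p = 9.81e-05) and 2.16 without gRNA 2 replicate 3 (edgeR adjusted p = 4.21e-10). KRT7, a simple epithelial keratin, was at 1278, 1083 and 1225 CPM with gRNA 2 and 487, 511 and 497 CPM with gRNA 10 (1.26, edgeR adjusted p = 6.97e-06). KRT8, a keratin of simple epithelia, was at 952, 794 and 1345 CPM and 827, 941 and 904 CPM and did not pass the test (0.21, edgeR adjusted p = 0.323). CDH1, E-cadherin, was at 34.2, 34.1 and 16.2 CPM with gRNA 2 and 14.4, 15.9 and 14.5 CPM with gRNA 10, so that gRNA 2 replicate 3 stood next to the gRNA 10 libraries, and its difference was 0.92 (edgeR adjusted p = 0.0136) and 1.20 without gRNA 2 replicate 3 (edgeR adjusted p = 1.31e-06). The splicing regulator ESRP1 (1.96) was higher with gRNA 2, and the transcription factor ELF3 (-0.93) and the desmosomal PKP2 (-0.76) were the 2 members called lower.

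Of the mesenchymal genes and regulators, 10 of 26 tested members were called higher with gRNA 2 and 6 lower (61.5% called, against the 38.8% of all genes), with a median log2 difference of 0.34. In the model lacking gRNA 2 replicate 3, 12 of 26 were higher and 7 lower, with a median of 0.17. CCN2, a matricellular growth factor, was at 59.8, 60.2 and 121 CPM with gRNA 2, 18.4, 18.3 and 16.2 CPM with gRNA 10 and 28.8, 33.3 and 35.7 CPM in control. Its groups did not overlap, gRNA 10 being the lowest, and the difference was 2.19 on the log2 scale (SE 0.25, edgeR adjusted p = 0.000122) and 1.77 without gRNA 2 replicate 3 (edgeR adjusted p = 7.77e-09). S100A4, a calcium-binding protein of motile cells, was at 7.89, 7.55 and 2.05 CPM with gRNA 2 and 29.5, 27.1 and 26.1 CPM with gRNA 10. The control libraries, at 19.98, 17.7 and 16.7 CPM, lay between them, and the difference was -2.23 on the log2 scale (SE 0.34, edgeR adjusted p = 0.000608) and -1.83 without gRNA 2 replicate 3 (edgeR adjusted p = 2.09e-08). The repressors of E-cadherin ZEB1 (-0.57) and ZEB2 (-1.15) were lower with gRNA 2, while the intermediate filament vimentin, VIM (0.61), was higher, as log2 differences.

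Of the integrins, laminins and collagens, 8 of 37 tested members were called higher with gRNA 2 and 12 lower (54.1% called, against the 38.8% of all genes), with a median log2 difference of -0.23. When gRNA 2 replicate 3 was left out, 10 of 37 were called higher and 12 lower, and the median was -0.07. COL12A1, a fibril-associated collagen encoded at chr6:75084326-75206053, was at 31.2, 42.2 and 33.7 CPM with gRNA 2, 293, 241 and 255 CPM with gRNA 10 and 35.8, 32.7 and 33.2 CPM in control. The gRNA 2 and control libraries overlapped and the gRNA 10 libraries were far above both, with a guide difference of -2.88 on the log2 scale (SE 0.13, edgeR adjusted p = 2.44e-07). ITGB8, an integrin that activates TGF-beta, was at 0.645, 0.877 and 0.166 CPM with gRNA 2 and 6.14, 6.29 and 5.11 CPM with gRNA 10, a difference of -3.33 on the log2 scale (SE 0.36, edgeR adjusted p = 7.56e-05). Members called higher with gRNA 2 included the laminin chains LAMA3 (0.78) and LAMB3 (0.42) and the laminin receptor subunit ITGB4 (0.82), as log2 differences. Of the extracellular proteases and inhibitors, 8 of 26 tested members were called higher with gRNA 2 and 7 lower (57.7% called, against the 38.8% of all genes), with a median log2 difference of 0.08. A model fitted without gRNA 2 replicate 3 called 11 higher and 9 lower of 27, with a median of -0.04. ADAM8, a membrane metalloprotease encoded at chr10:133262423-133276868, was at 47.5, 39.8 and 34.6 CPM with gRNA 2, 4.03, 4.04 and 2.85 CPM with gRNA 10 and 4.61, 5.85 and 5.27 CPM in control, a guide difference of 3.48 on the log2 scale (SE 0.18, edgeR adjusted p = 6.54e-07). MMP14, the membrane-type matrix metalloprotease, was at 39.7, 35.1 and 43.3 CPM with gRNA 2, 5.29, 6.34 and 8.06 CPM with gRNA 10 and 46.6, 43 and 51.8 CPM in control. For MMP14 the gRNA 10 libraries were far below both other groups, with a guide difference of 2.58 on the log2 scale (SE 0.15, edgeR adjusted p = 2.22e-06) and -0.26 (edgeR adjusted p = 0.168) for gRNA 2 against control.

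Of the AP-1 and MAP kinase feedback list, 16 of 31 tested members were called higher with gRNA 2 and 4 lower (64.5% called, against the 38.8% of all genes), with a median log2 difference of 0.50. Leaving out gRNA 2 replicate 3 gave 16 higher and 8 lower of 32, with a median of 0.24. For several immediate-early genes of this list the difference was much smaller without 1 library. FOS was at 3.72, 4.87 and 90.7 CPM with gRNA 2, 2.67, 2.74 and 3.45 CPM with gRNA 10 and 3.7, 5.37 and 5.17 CPM in control. Only gRNA 2 replicate 3 stood above the control range, and the difference of 3.47 on the log2 scale (SE 1.05, edgeR adjusted p = 0.0244) became 0.55 without gRNA 2 replicate 3 (edgeR adjusted p = 0.0376). EGR1 was at 36.3, 38.3 and 348 CPM with gRNA 2, 20.5, 18.7 and 18.7 CPM with gRNA 10 and 45.6, 50.6 and 45.2 CPM in control. Here too only gRNA 2 replicate 3 stood above the control range. Replicates 1 and 2 of gRNA 2 lay between gRNA 10 and control for EGR1, and within the control range for FOS. The EGR1 difference of 2.86 on the log2 scale (SE 0.75, edgeR adjusted p = 0.0124) became 0.96 without gRNA 2 replicate 3 (edgeR adjusted p = 9.58e-07). JUN moved from 1.48 to 0.36 without gRNA 2 replicate 3 (edgeR adjusted p = 0.00118), and IER2 from 1.39 to 0.57 without gRNA 2 replicate 3 (edgeR adjusted p = 0.000257). FOSL1, which encodes the AP-1 subunit FRA1, was at 257, 222 and 553 CPM with gRNA 2, 70.6, 74.2 and 69.3 CPM with gRNA 10 and 91.7, 94.8 and 99.2 CPM in control. All 3 gRNA 2 libraries were above all others, with a difference of 2.27 on the log2 scale (SE 0.28, edgeR adjusted p = 0.000196) and 1.75 without gRNA 2 replicate 3 (edgeR adjusted p = 8.74e-10). PHLDA1, a target of MAP kinase signalling, was at 284, 334 and 337 CPM with gRNA 2 and 111, 107 and 108 CPM with gRNA 10 (1.55, edgeR adjusted p = 9.09e-07), and replicate 3 lay beside replicate 2.

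Of the EGF receptors and ligands, 5 of 12 tested members were called higher with gRNA 2 and 4 lower (75% called, against the 38.8% of all genes), with a median log2 difference of 0.34. The counts were 6 higher and 4 lower of 13, and the median 0.16, once gRNA 2 replicate 3 was left out. EREG, which encodes the EGF receptor ligand epiregulin, was at 140.4, 198 and 152 CPM with gRNA 2, 83.6, 77.1 and 71.8 CPM with gRNA 10 and 103, 109 and 109 CPM in control. The 3 groups did not overlap, and the guides differed by 1.08 on the log2 scale (SE 0.12, edgeR adjusted p = 0.000117). AREG, which encodes amphiregulin, was at 89.1, 109.6 and 93.9 CPM with gRNA 2, 58.1, 51 and 52.2 CPM with gRNA 10 and 112, 108 and 108 CPM in control. Here gRNA 10 was below the control, and gRNA 2 overlapped it, with a guide difference of 0.86 on the log2 scale (SE 0.09, edgeR adjusted p = 9.22e-05). The receptor EGFR was higher (0.40) and ERBB2 lower (-0.41) with gRNA 2, as log2 differences.

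**Figure D3:**
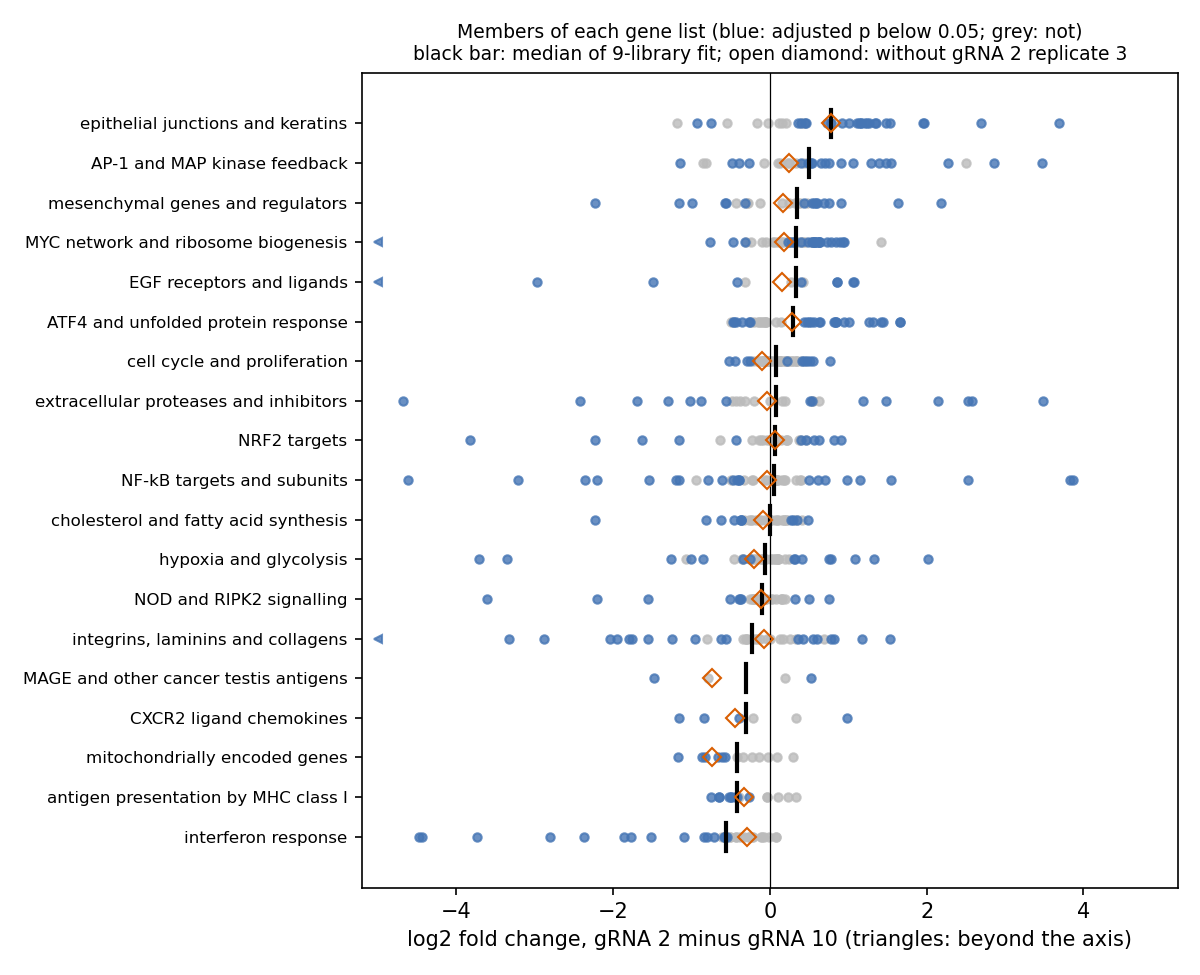
Log2 fold change, gRNA 2 minus gRNA 10, of every tested member of 19 gene lists (rows); blue points have an adjusted p below 0.05, grey points do not, black bars are the median with all 9 libraries and open diamonds the median without gRNA 2 replicate 3. The epithelial list has the highest median (0.78 both ways), the interferon list the lowest with all 9 libraries (-0.56), and triangles mark members beyond the axis.

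Most of the amino acid and unfolded protein stress response genes that were called were higher with gRNA 2. Of the list of ATF4 and unfolded protein response, 19 of 38 tested members were called higher with gRNA 2 and 6 lower (65.8% called, against the 38.8% of all genes), with a median log2 difference of 0.29. In the model lacking gRNA 2 replicate 3, 19 of 38 were higher and 8 lower, with a median of 0.28. DDIT3, which encodes the stress factor CHOP, was at 29.9, 40.3 and 35.7 CPM with gRNA 2, 11.6, 11.5 and 10.5 CPM with gRNA 10 and 13, 12 and 12.2 CPM in control. The gRNA 2 libraries were above all others, with a guide difference of 1.66 on the log2 scale (SE 0.12, edgeR adjusted p = 7.79e-06) and 1.66 without gRNA 2 replicate 3 (edgeR adjusted p = 1e-07). CHAC1, a glutathione-degrading enzyme induced by ATF4, was at 40.5, 49.7 and 66.8 CPM with gRNA 2, 13.4, 19 and 17.4 CPM with gRNA 10 and 30.4, 24.3 and 26.3 CPM in control. Its 3 groups did not overlap, gRNA 10 being the lowest, and the guides differed by 1.66 on the log2 scale (SE 0.19, edgeR adjusted p = 0.000121). The amino acid synthesis enzymes ASNS (1.32), PSAT1 (1.41), PHGDH (0.84) and SHMT2 (1.02) and ATF4 itself (0.85) were higher with gRNA 2. The members called lower were chaperones and sensors of the endoplasmic reticulum, DNAJC3 (-0.47), PDIA6 (-0.46), MANF (-0.43), ATF6 (-0.35), HYOU1 (-0.27) and HSP90B1 (-0.25), and the chaperone HSPA5 did not pass the test (-0.05, edgeR adjusted p = 0.737).

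Of the list of MYC network and ribosome biogenesis, 22 of 50 tested members were called higher with gRNA 2 and 4 lower (52% called, against the 38.8% of all genes), with a median log2 difference of 0.34. When gRNA 2 replicate 3 was left out, 24 of 50 were called higher and 6 lower, and the median was 0.17. MYC was at 145, 145 and 209.5 CPM with gRNA 2, 111, 119 and 114 CPM with gRNA 10 and 84, 81.8 and 88.7 CPM in control. All gRNA 2 libraries were above gRNA 10 and all gRNA 10 libraries above control, with a guide difference of 0.53 on the log2 scale (SE 0.13, edgeR adjusted p = 0.00965) and 0.34 without gRNA 2 replicate 3 (edgeR adjusted p = 0.000657). WDR74, a ribosome assembly factor, was at 72, 58.6 and 121 CPM with gRNA 2 and 45, 43.4 and 42.7 CPM with gRNA 10, a difference of 0.94 on the log2 scale (SE 0.21, edgeR adjusted p = 0.00591) and 0.58 without gRNA 2 replicate 3 (edgeR adjusted p = 8.86e-05). The 4 members called lower were CCND2, MYCL (-0.76), MXD3 (-0.47) and TFRC (-0.32). CCND2, cyclin D2, had 2, 0 and 0 counts with gRNA 2, 161, 147 and 156 with gRNA 10 and 2, 1 and 3 in control. Its summed counts were higher with gRNA 10 by 228-fold (95% counting interval 62.7 to 1886). CCND2 passed the filter on low counts through gRNA 10 alone, which fixes its direction, and it counts among the 4 called lower. Of the cell cycle and proliferation list, 7 of 52 tested members were called higher with gRNA 2 and 4 lower (21.2% called, below the 38.8% of all genes), with a median log2 difference of 0.08. A model fitted without gRNA 2 replicate 3 called 8 higher and 9 lower of 52, with a median of -0.10. CDT1, a DNA replication licensing factor, was at 59.99, 52.6 and 95.1 CPM with gRNA 2 and 36.5, 43.5 and 41.7 CPM with gRNA 10 (0.77 on the log2 scale, SE 0.19, edgeR adjusted p = 0.00928), and 0.48 without gRNA 2 replicate 3 (edgeR adjusted p = 0.000964). TYMS, thymidylate synthase, was at 202, 191 and 336 CPM and 173, 165 and 161 CPM (0.54 on the log2 scale, SE 0.18, edgeR adjusted p = 0.0334), and its call was lost when any 1 of the control or gRNA 10 libraries was left out, with adjusted p of 0.0522 to 0.104. The proliferation marker MKI67 did not pass the test with all libraries (-0.16, edgeR adjusted p = 0.376) and was -0.32 without gRNA 2 replicate 3 (edgeR adjusted p = 0.0124).

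PMAIP1, which encodes the death factor NOXA, was at 39.8, 51.3 and 52 CPM with gRNA 2, 19.9, 18.6 and 17.3 CPM with gRNA 10 and 25.7, 26.2 and 27.2 CPM in control, a guide difference of 1.36 on the log2 scale (SE 0.12, edgeR adjusted p = 1.82e-05). SFN, which encodes 14-3-3 sigma, was at 235, 157 and 476 CPM with gRNA 2 and 108, 127 and 121 CPM with gRNA 10 (1.28 on the log2 scale, SE 0.31, edgeR adjusted p = 0.00828), and 0.73 without gRNA 2 replicate 3 (edgeR adjusted p = 0.000341). Of the hypoxia and glycolysis list, 8 of 39 tested members were called higher with gRNA 2 and 7 lower (38.5% called, near the 38.8% of all genes), with a median log2 difference of -0.06. Leaving out gRNA 2 replicate 3 gave 11 higher and 17 lower of 39, with a median of -0.20. ALDOC, a brain-type aldolase, was at 3.08, 2.68 and 6.36 CPM with gRNA 2, 40.1, 44.9 and 38.2 CPM with gRNA 10 and 4.85, 4.12 and 4.54 CPM in control, a guide difference of -3.36 on the log2 scale (SE 0.26, edgeR adjusted p = 9.16e-06). STC2, a secreted glycoprotein, was at 196, 215 and 210.3 CPM with gRNA 2, 50.9, 54 and 48.6 CPM with gRNA 10 and 105, 98.6 and 108 CPM in control. The gRNA 2 libraries lay above the control and the gRNA 10 libraries below it, with a guide difference of 2.02 on the log2 scale (SE 0.08, edgeR adjusted p = 1.18e-07). The glucose transporter SLC2A1 was higher with gRNA 2 (0.78) and SLC2A3 lower (-3.71), as log2 differences.

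Of the cholesterol and fatty acid synthesis list, 4 of 35 tested members were called higher with gRNA 2 and 7 lower (31.4% called, below the 38.8% of all genes), with a median log2 difference of 0.01. The counts were 6 higher and 12 lower of 35, and the median -0.09, once gRNA 2 replicate 3 was left out. STARD4, a sterol carrier, was at 19, 22 and 16.1 CPM with gRNA 2 and 36.4, 30.4 and 33.4 CPM with gRNA 10 (-0.81 on the log2 scale, SE 0.12, edgeR adjusted p = 0.000597), and NSDHL, a sterol dehydrogenase, had -0.62 on the log2 scale (SE 0.15, edgeR adjusted p = 0.00875). Of the NRF2 targets, 6 of 28 tested members were called higher with gRNA 2 and 5 lower (39.3% called, near the 38.8% of all genes), with a median log2 difference of 0.06. In the model lacking gRNA 2 replicate 3, 9 of 28 were higher and 6 lower, with a median of 0.06. The aldo-keto reductase AKR1C2 had 19, 14 and 0 counts with gRNA 2, 187, 166 and 125 with gRNA 10 and 45, 49 and 41 in control. Its near-identical neighbour AKR1C1 was at 2.78, 2.24 and 0.608 CPM with gRNA 2 and 10.1, 8.98 and 7.66 CPM with gRNA 10 (-2.22 on the log2 scale, SE 0.35, edgeR adjusted p = 0.000819), and how reads shared by these copies were divided is not given in the sources used here. Of the MAGE and other cancer testis antigens, 38 were listed and 1 of 4 tested members was called higher with gRNA 2 and 1 lower (50% called, against the 38.8% of all genes), with a median log2 difference of -0.30. When gRNA 2 replicate 3 was left out, 1 of 5 were called higher and 2 lower, and the median was -0.74. CT83 was the member called higher (0.52 on the log2 scale, SE 0.14, edgeR adjusted p = 0.0122), and XAGE1B, which has a near-identical copy, the member called lower (-1.47). Of the mitochondrially encoded genes, 0 of 13 tested members were called higher with gRNA 2 and 6 lower (46.2% called, against the 38.8% of all genes), with a median log2 difference of -0.42. A model fitted without gRNA 2 replicate 3 called 0 higher and 11 lower of 13, with a median of -0.74. MT-ND1, a subunit of respiratory complex I, was at 873, 855 and 1008 CPM with gRNA 2, 1636, 1475 and 1741 CPM with gRNA 10 and 554, 585 and 582 CPM in control (-0.83 on the log2 scale, SE 0.10, edgeR adjusted p = 0.000148). MT-ATP6, a subunit of ATP synthase, was at 736, 840.1 and 1283 CPM and 1549, 1407 and 1557 CPM (-0.66 on the log2 scale, SE 0.17, edgeR adjusted p = 0.0126), and -0.93 without gRNA 2 replicate 3 (edgeR adjusted p = 2.74e-07). The mitochondrial share of all counts was 1.75%, 2.12% and 2.89% with gRNA 2, 2.46% to 2.77% with gRNA 10 and 1.26% to 1.32% in control.

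Some genes were nearly silent in 1 guide population and present in the other. With gRNA 2, 15 genes had at most 3 counts in every library and a mean of at least 100 counts with gRNA 10, and 1 gene, IL24, had the reverse. The same numbers, 15 and 1, held without gRNA 2 replicate 3. Of the 15 genes, 9 also had at most 3 counts in every control library, and in 0 of them did the control mean reach 100 counts. NCAM1, a neural cell adhesion molecule encoded at chr11:112961420-113278436, had 0, 0 and 0 counts with gRNA 2, 390, 392 and 332 with gRNA 10 and 1, 0 and 1 in control. Its level was at least 121-fold higher with gRNA 10, computed against a floor of 3 counts per library. OLR1, the receptor for oxidised LDL encoded at chr12:10158301-10176266, had 1, 2 and 0 counts with gRNA 2, 1062, 1009 and 993 with gRNA 10 and 8, 7 and 5 in control, a ratio of 1002-fold (95% counting interval 343 to 4863). GABRQ, a GABA receptor subunit on chromosome X, had 1, 0 and 1 counts with gRNA 2 and 362, 356 and 387 with gRNA 10, a ratio of 542-fold (95% counting interval 149.7 to 4483). FGA, the fibrinogen alpha chain, had 0, 1 and 0 counts with gRNA 2, 202, 145 and 120 with gRNA 10 and 9, 15 and 12 in control, a ratio of 458-fold (95% counting interval 81.9 to 18139.9), and its neighbour FGG was also among the 15.

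Genes listed at 0 in every gRNA 2 library further included the protease ADAMTS12, with 281, 246 and 256 counts with gRNA 10 (at least 85.1-fold). TMEM178B had 225, 254 and 244 counts (at least 78.6-fold), the calsyntenin CLSTN2 201, 192 and 176 counts (at least 61.9-fold) and NAP1L2 189, 150 and 171 counts (at least 55.5-fold). The axon guidance receptor ROBO1 had 162, 167 and 148 counts (at least 51.8-fold) and the retinaldehyde dehydrogenase ALDH1A1 131, 133 and 116 counts (at least 41.3-fold). In the control libraries ADAMTS12, CLSTN2, NAP1L2 and ALDH1A1 were also at 0, TMEM178B reached 4 counts and ROBO1 reached 2, so gRNA 10 was the population that stood apart from both others for these genes. IL24, a cytokine of the interleukin 10 family encoded at chr1:206897443-206904139, had 178, 199 and 83 counts with gRNA 2, 0, 1 and 1 with gRNA 10 and 12, 11 and 8 in control. Its control libraries lay between the guides, and the summed counts were higher with gRNA 2 by 234-fold (95% counting interval 64.5 to 1941). ZFPM2, a GATA cofactor, was at 8.83, 8.92 and 9.4 CPM with gRNA 2, 0.252, 0.599 and 0.0501 CPM with gRNA 10 and 10.2, 10.7 and 9.61 CPM in control. The gRNA 2 level was close to control (-0.17, edgeR adjusted p = 0.596), and the guides differed by 4.88 on the log2 scale (SE 0.35, edgeR adjusted p = 6.45e-06). KIF26B, a kinesin family member, was at 7.89, 8.33 and 13.9 CPM with gRNA 2, 0.755, 1.1 and 0.851 CPM with gRNA 10 and 3.7, 4.12 and 3.95 CPM in control (3.47 on the log2 scale, SE 0.27, edgeR adjusted p = 1.05e-05), and EPS8L1, a relative of the EGF receptor substrate EPS8, was at 5.36, 4.14 and 6.08 CPM and 0.554, 0.499 and 0.501 CPM (3.31 on the log2 scale, SE 0.23, edgeR adjusted p = 5.16e-06). KRTAP2-3, a keratin-associated protein, was at 3.42, 3.31 and 40.2 CPM with gRNA 2 and 0.604, 0.749 and 0.701 CPM with gRNA 10, so its difference of 4.49 on the log2 scale (SE 1.01, edgeR adjusted p = 0.00596) was 2.29 without gRNA 2 replicate 3 (edgeR adjusted p = 1.34e-06).

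**Figure D4:**
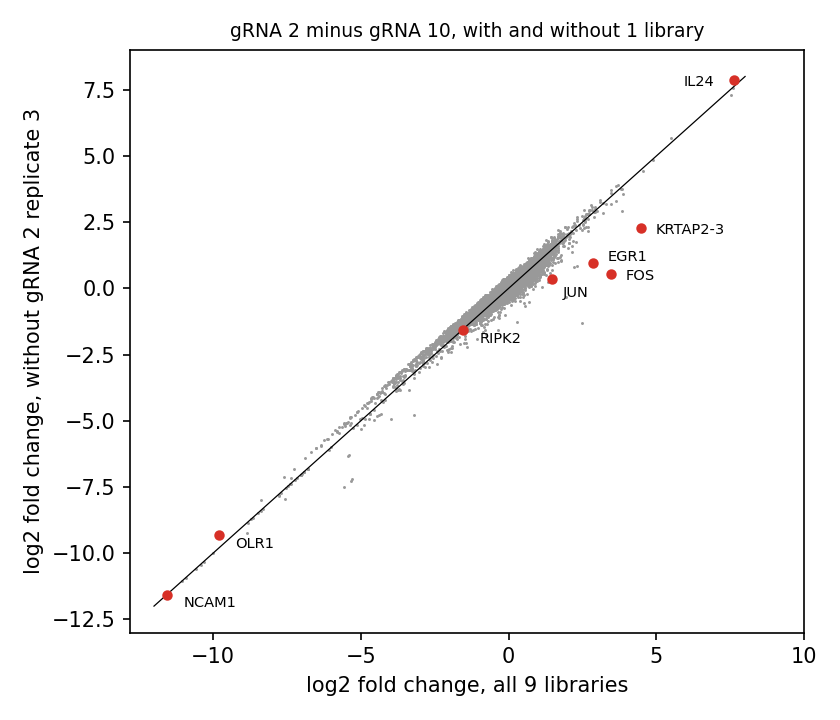
Log2 fold change, gRNA 2 minus gRNA 10, of each gene tested in both models, with all 9 libraries (horizontal axis) and without gRNA 2 replicate 3 (vertical axis); the line marks equal values. RIPK2, OLR1, NCAM1 and IL24 lie on or near the line, and FOS, EGR1, JUN and KRTAP2-3 lie below it, with smaller values without that library.

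The called genes were spread unevenly over the chromosomes, which is given here as a description with no test. Gene positions came from RefSeq (GRCh38.p14), matched by symbol or synonym. On chromosome 16, 291 of 654 genes tested (44.5%) were higher with gRNA 2 and 42 (6.42%) lower, with a median log2 difference of 0.33. On chromosome X, 26 of 476 (5.46%) were higher and 203 (42.6%) lower, with a median of -0.30. Chromosome 14 had 37.5% higher and 9.94% lower, chromosome 18 had 33.5% and 11.3%, and chromosome 5 had 10.8% and 26.1%. Without gRNA 2 replicate 3 the medians were 0.30 on chromosome 16, -0.31 on chromosome X, 0.23 on chromosome 14, 0.17 on chromosome 18 and -0.11 on chromosome 5. Against control, the chromosome 16 median was -0.11 with gRNA 2 and -0.43 with gRNA 10, and the chromosome X median was -0.09 and 0.21, with the control libraries shared. DNA copy number was not measured in these files, and its part in the pattern was not tested.

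Within chromosomes, genes were counted in stretches of 10 Mb that held at least 20 genes tested, and the stretches described were chosen after their values were seen. Over all genes tested, 19.2% were higher and 19.6% lower, and 23.9% and 24% without gRNA 2 replicate 3. On chromosome 5 between 30 and 40 Mb, 1 of 32 genes was higher and 24 lower, with a median of -0.58. That stretch held ADAMTS12, silent with gRNA 2, and its median against control was 0.31 with gRNA 2 and 0.86 with gRNA 10. On chromosome 18 between 70 and 80 Mb, 15 of 22 genes were higher and 1 lower, with a median of 0.62, where gRNA 2 stood at -0.19 and gRNA 10 at -0.97 against control. On chromosome X, 0 of 61 genes between 150 and 160 Mb were higher and 39 were lower, with a median of -0.50, in the stretch that holds GABRQ. On chromosome 16, between 60 and 70 Mb, 51 of 80 genes were higher and 3 lower, with a median of 0.45. Without gRNA 2 replicate 3 these medians were -0.57 (chromosome 5), 0.61 (chromosome 18), -0.57 (chromosome X) and 0.48 (chromosome 16). Some other stretches of chromosomes 5, 18 and X did not share the direction by count: 10 genes were higher and 5 lower of 31 on chromosome 5 between 0 and 10 Mb, 1 and 4 of 21 on chromosome 18 between 10 and 20 Mb, and 6 and 6 of 31 on chromosome X between 110 and 120 Mb. The median of that chromosome 18 stretch was still 0.13, and its counts were 4 higher and 5 lower without gRNA 2 replicate 3. On chromosome 16, each stretch counted had more genes higher than lower. Around RIPK2 itself, 8 of 29 genes within 5 Mb were higher and 2 lower, with a median of 0.21 (12 and 2 without gRNA 2 replicate 3), and ESRP1 was among those higher.

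**Figure D5:**
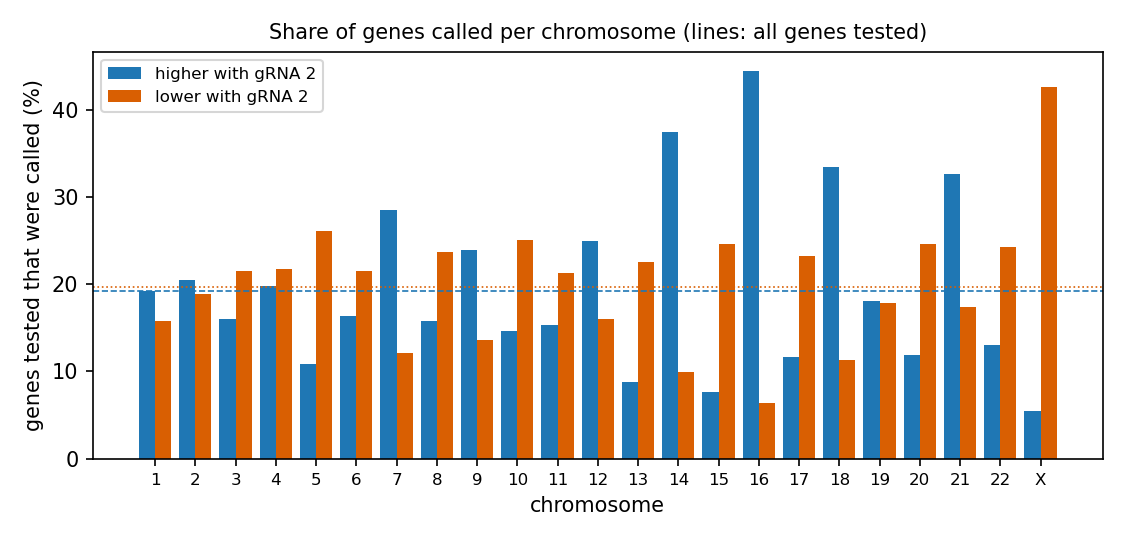
Bars give, for each chromosome, the percent of its tested genes called higher (blue) or lower (orange) with gRNA 2, and the horizontal lines give the same over all genes tested (19.2% and 19.6%). Chromosome 16 has the tallest blue bar (44.5%) and chromosome X the tallest orange bar (42.6%).

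PC3, another prostate cancer line, carried guides of the same numbers, in libraries of its own. Whether guides of 1 number had the same sequence in both lines is not given in the sources used here. RIPK2 in PC3 was at 21.7, 20.1 and 20.1 CPM with gRNA 2, 25.5, 28.3 and 27.8 CPM with gRNA 10 and 59.5, 59.3 and 62.4 CPM in control. Both guide populations of PC3 were below the control, and the guides differed by -0.40 (edgeR adjusted p = 1.05e-06), with a DU145 minus PC3 interaction of -1.18 (edgeR adjusted p = 3.44e-07). In PC3, 10799 of 14718 genes tested (73.4%) were called between the guides. The interaction of line and guide was called for 8067 of 15764 genes (51.2%), 4002 more positive and 4065 more negative in DU145. Among 13472 genes tested in both lines, 5127 were called in DU145 and 9933 in PC3. Of these, 2030 were called in the same direction (39.6% of the DU145 genes and 20.4% of the PC3 genes) and 1968 in opposite directions. The correlation of the log2 differences across genes was 0.03, a description over genes that share libraries and are not independent. CSF2 was higher with gRNA 2 in both lines (3.86 in DU145 and 2.50 in PC3, edgeR adjusted p = 7.25e-06), and its interaction did not pass the test (1.33, edgeR adjusted p = 0.166). In PC3, however, CSF2 was at 1.08, 0.838 and 0.89 CPM with gRNA 2 and 0.0484, 0.144 and 0.288 CPM with gRNA 10. It passed the filter on low counts there through gRNA 2 alone, which fixes its direction in PC3. AKR1C2 was lower with gRNA 2 in both (-3.83 and -4.65, edgeR adjusted p = 5.01e-20), and TMEM178B was nearly silent with gRNA 2 in DU145 and at -8.47 in PC3 (edgeR adjusted p = 2.63e-22). In PC3, TMEM178B was at 0.0493, 0.0493 and 0 CPM with gRNA 2 and 14.3, 14.8 and 12.4 CPM with gRNA 10, so the fitted value depends on the prior count. In DU145, TMEM178B passed the filter on low counts through gRNA 10 alone, which fixes its direction there. Its sign in DU145 therefore adds nothing to the comparison of the lines. DDIT3, PMAIP1 and CHAC1 went in opposite directions: in PC3 they were -1.39, -2.59 and -1.24 (edgeR adjusted p = 6.18e-15, 1.66e-18 and 1.8e-14).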

How the data were processed

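The 9 DU145 libraries, and 9 from PC3 for 1 comparison, were used; the 22Rv1 table was not used here. Groups came from the sample titles, and table columns were matched to samples through the library names in the labels, which number the gRNA 2 replicates differently: gRNA 2 replicate 3 here is the library numbered 4. Strand-specific mRNA libraries were sequenced as read pairs of 150 bases on the DNBseq platform, per the labels' protocols. The authors deposited raw read counts per gene symbol and library, 1 table per line, per the file headers. The submitters' processing notes name hg38, FastQC, STAR and edgeR with no role or version, and the counting program and annotation are not given in the sources used here.

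Symbols listed more than once were summed (2 in DU145 and 2 in PC3). edgeR 4.0.16 in R 4.3.3 was run on the counts as deposited: filterByExpr (minimum count 10, minimum total 15), TMM, robust quasi-likelihood F test, 9 libraries with group as the only term, two-sided, Benjamini-Hochberg adjustment over all genes tested, threshold 0.05. Standard errors were derived from the F statistic. CPM compare libraries, not genes of different length. The interaction of line and guide was fitted on 18 libraries for symbols listed in both tables. Mean ± SD are over 3 libraries. The floor of 3 counts per library and the 95% intervals cover counting error only, since reads carry no molecular identifiers. No batch is named in the labels. Replicate libraries differed by more than counting noise, so none was taken as a library deposited more than once; this does not show separate cultures.

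The comparison, the 19 gene lists and the rules were chosen with earlier results of these data known. The text names RIPK2, NOD1 and NOD2, the 10 largest differences in each direction that were called with and without gRNA 2 replicate 3, with a mean of at least 100 counts in the higher group and no overlap, the 2 largest from each list by the same conditions, and all CXCR2 ligands tested; other list members named were chosen after their values were seen, PMAIP1 and SFN came from a further list, and some items these rules cover are not reported here. Positions came from RefSeq GRCh38.p14 (14572 of 14908 genes by symbol, 287 by synonym, 49 unmatched). Alternatives were RLE and upper quartile factors, no mitochondrial genes, DESeq2 1.42.0, other filters on low counts, the 6 libraries alone, the replicate block, and each library left out in turn. The NF-kB and NOD lists share BIRC3, and the NF-kB list holds 4 CXCR2 ligands.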

Additional observations from a re-analysis of the deposited data

Results flagged for a closer look

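For 45 of the 60 genes named by rule, the difference between gRNA 2 and gRNA 10 was not the same in DU145 and PC3 by the interaction test (edgeR adjusted p below 0.05). Most of these genes were named for their difference in DU145, so a larger difference there was built into the choice, and 51.2% of all genes tested had such an interaction. Values are log2 differences of differences, DU145 minus PC3. Positive values were found for PMAIP1 3.92, CLDN4 3.52, LTB 3.50, DDIT3 3.02, CHAC1 2.87, MMP14 2.71, ADAM8 2.57, STC2 2.38 and TYMS 2.29, and for EPCAM 2.26, CXCL2 1.71, SFN 1.64, AREG 1.47, EREG 1.26, CXCL3 1.24, CXCL8 1.19, CXCL1 1.05, CCN2 0.94, WDR74 0.76 and CDT1 0.68. Negative values were found for ITGB8 -4.01, LGALS3BP -3.96, COL12A1 -3.77, ALDOC -3.48, BIRC3 -2.59, CXCL5 -1.70, ERAP2 -1.47, S100A4 -1.38 and MT-ND1 -1.29, and for RIPK2 -1.18, MT-ATP6 -1.18, NOD1 -1.11 and SAMD9 -1.08. Genes with few counts in some group had large fitted values that depend on the prior count and are no measured size: IL24 6.91, ZFPM2 10.70, KIF26B 5.09, EPS8L1 4.04, ADAMTS12 -10.11, NAP1L2 -10.27, ROBO1 -10.55, ALDH1A1 -14.60, GABRQ -6.45, FGA -11.62, CCL5 -3.92 and CCND2 -8.93. Some genes listed before these also had few counts. LTB and CXCL5 were below 1 CPM in every PC3 library. CXCL2 and CXCL3 had means of 0.543 and 0.395 CPM with gRNA 2 in PC3, and ITGB8 had 0.563 CPM with gRNA 2 in DU145. In PC3 the guide difference had the opposite sign and was itself called for TYMS (-1.78), PMAIP1 (-2.59), DDIT3 (-1.39), CHAC1 (-1.24), LGALS3BP (2.08), ERAP2 (0.80), COL12A1 (0.86) and ITGB8 (0.66), among others.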

How the results depend on the processing

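The count of genes called, 5789, ran from 4011 with the 6 libraries alone to 7266 without gRNA 2 replicate 3, and stayed within 1.5 times in each of the 18 alternatives run. DESeq2 called 6107, RLE factors gave 5784, and leaving out the mitochondrial genes gave 5781. With a replicate block the count was 5229, but the numbers do not pair the libraries: the deviations of same-numbered gRNA 2 and gRNA 10 libraries correlated at -0.19, -0.12 and 0.02. RIPK2 was lower with gRNA 2 in each of the 18, from -1.65 to -1.44. The interaction count ran from 7152 to 9306 over 16 alternatives. No named gene that was called reversed. Several genes were given above with all 9 libraries only. Without gRNA 2 replicate 3 the log2 differences were BIRC3 -2.18, CSF2 3.55, CXCL5 -1.10, CXCL6 -0.63, ERAP2 -0.56, COL12A1 -2.83 and ITGB8 -2.92. They were ADAM8 3.59, MMP14 2.52, EREG 1.13, AREG 0.89, CHAC1 1.45, STARD4 -0.70, NSDHL -0.84, AKR1C1 -1.82, ALDOC -3.83 and STC2 2.01. They were also PMAIP1 1.30, ZFPM2 4.86, KIF26B 3.17, EPS8L1 3.19, TYMS 0.24, CT83 0.42 and MT-ND1 -0.90. FOS lost its call under 6 alternatives, including the replicate block (2.52, adjusted p = 0.0515), CXCL1 under 7, TYMS under 7, CXCL8 under 2, and EGR1 and CT83 under 1 each; the cause was not tested. DESeq2 gave no adjusted p for KRTAP2-3, FOS and EGR1. List medians kept their sign in each alternative for the epithelial (0.62 to 0.94), interferon (-0.67 to -0.29), MHC class I (-0.50 to -0.34), AP-1 (0.24 to 0.58), ATF4 (0.24 to 0.33) and MYC (0.17 to 0.48) lists. The same held for the CXCR2 (-0.45 to -0.23), mitochondrial (-0.74 to -0.26), mesenchymal (0.17 to 0.38) and integrin (-0.28 to -0.07) lists. Medians nearer 0 also kept their sign for the EGF (0.03 to 0.39), NOD (-0.14 to -0.07) and NRF2 (0.02 to 0.08) lists. They changed sign for the NF-kB, cell cycle, protease, cholesterol, hypoxia and MAGE lists. Genes under the floor of 3 counts (0.144 to 0.166 CPM) cannot be ranked.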
